A study of Drosophila melanogaster with 62 samples.

Results

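Contact profiles of 2 gypsy insulator insertions were compared in *Drosophila* embryos, gypsy1 with 3 4C-seq libraries and gypsy2 with 3. These are 6 of the 62 samples of the series. The members were chosen by their labels and by the columns of the embryo tables, not by a measured value. 4C-seq counts the reads of fragments ligated to a chosen fragment, the viewpoint, so that a region's count follows how often it met that viewpoint. Every library has counts for both viewpoints, one at PRE2 and one called gypsy2, and the question was where along chromosome 2L the insertions changed contacts differently.

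The gypsy1 and gypsy2 libraries were made from whole embryos whose genotype field gives an insertion of gypsy and no further allele, and the labels state neither the insertion sites nor the age of the embryos. The columns of gypsy2 carry the letters enh, while its labels give the insertion alone. The controls were 3 wild-type libraries (WT, replicates 1 to 3) and 3 libraries titled WT, replicates 4 to 6, whose genotype field gives a gypsy insertion; they are called titled-WT here, and the conflict in their labels could not be settled. All flies were grown at 20 °C on standard medium. The gypsy1 libraries are named by the numbers of their columns, 1, 3 and 4, since their labels number them 1 to 3. Nothing says that the libraries of a group came from separate collections of embryos, so that p-values measure only the spread between these libraries, and counts of whole embryos hold no expression markers by which the tissue could be checked.

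The gypsy insulator is the stretch of the gypsy retrotransposon that is bound by Su(Hw), and it can block an enhancer from a promoter when it lies between them. Polycomb response elements (PREs) are DNA elements that recruit Polycomb group proteins, and distant PREs can meet and form a chromatin loop. The transcription factor gene *dac*, which is needed for eye, leg and brain development, lies at such a loop: PRE1 sits in an intron of *CG5888*, PRE2 just upstream of *dac*, and the gypsy2 viewpoint between them.

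Libraries of the insertions differed in depth. The gypsy1 libraries held 944952 to 1466765 counts from PRE2 and 1275993 to 1394565 from the gypsy2 viewpoint, against 19952708 to 22267544 and 21961921 to 25904672 in gypsy2, which is 16.7 and 18.3 times as many on average. WT matched the depth of gypsy1, and titled-WT that of gypsy2. The viewpoint bin alone took 15.8% to 20.2% of the counts in gypsy1 and 44.4% to 56.8% in gypsy2 from PRE2. From the gypsy2 viewpoint it took 2.64%, 8.10% and 6.68% in gypsy1, below the 8.92% to 12.6% of WT. Gypsy2 held 40.8% to 59.3% in that bin and titled-WT 42.3% to 69.3%. On 2L outside the viewpoint the gap in depth between the insertions was thus 8.41 and 9.74 times. All values below are therefore shares of the counts of a library on 2L that lie outside the viewpoint bin and 5 kb on either side. An insertion's change was taken against the controls of its own depth, gypsy1 minus WT and gypsy2 minus titled-WT. The difference of these changes, which share no library, was tested. It can show whether the insertions acted differently only if titled-WT is wild type, which its labels leave unsettled. The difference is positive where the change in gypsy1 was the higher one. Replicates differed by more than counting error: over 24 pairs of replicates chi-squared was at least 9.19 times its degrees of freedom.

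The places on which the results turn are shown by the fragments that qPCR primers of the study amplify, matched to dm6, because they mark the loop ends and the stretches D3 and D5 whose shares are given below. Capitals mark GAGAG on either strand (CTCTC), an element that the GAGA factor GAF binds, and no match to GCCAT or its reverse complement ATGGC, the core of the site of PHO, was found in the 4 fragments. GAGAG occurs in 14.8% to 24.6% of all windows of the same lengths on 2L, and GCCAT in 25.8% to 41.0%.
PRE1 (chr2L:16422975-16423109, intron of *CG5888*): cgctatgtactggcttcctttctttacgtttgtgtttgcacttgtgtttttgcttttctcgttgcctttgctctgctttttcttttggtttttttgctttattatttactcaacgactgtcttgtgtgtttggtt
D3 (chr2L:16458220-16458407, intergenic, between the Idgf genes and *dac*): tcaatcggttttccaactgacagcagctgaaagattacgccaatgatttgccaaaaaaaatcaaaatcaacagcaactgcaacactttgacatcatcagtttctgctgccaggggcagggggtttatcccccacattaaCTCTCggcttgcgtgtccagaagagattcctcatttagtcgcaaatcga
D5 (chr2L:16483003-16483241, intron of *dac*): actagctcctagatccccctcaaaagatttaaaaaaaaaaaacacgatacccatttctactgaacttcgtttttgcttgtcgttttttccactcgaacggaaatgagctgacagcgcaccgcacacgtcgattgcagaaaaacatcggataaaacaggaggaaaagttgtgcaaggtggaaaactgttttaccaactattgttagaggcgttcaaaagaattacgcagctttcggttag
PRE2 (chr2L:16486192-16486382, intergenic, upstream of *dac*): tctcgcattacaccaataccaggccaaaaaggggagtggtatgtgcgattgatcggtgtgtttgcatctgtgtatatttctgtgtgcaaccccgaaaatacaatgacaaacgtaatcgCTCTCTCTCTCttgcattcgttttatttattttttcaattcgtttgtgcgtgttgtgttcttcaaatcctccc
Only PRE2 holds a run of overlapping matches, 4 in all, and D3 holds 1. Sequences are in the plus strand of dm6.

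From the PRE2 viewpoint both insertions lay below their controls at the PRE1 anchor and the Idgf cluster. Contacts with the PRE1 anchor, 6 kb around PRE1, took 1.86%, 2.08% and 1.90% of the counts in gypsy1 and 1.75%, 1.75% and 1.90% in gypsy2. WT held 2.77%, 2.97% and 2.86% there, and titled-WT 2.46%, 2.57% and 2.89%. Each insertion group thus lay below its controls without overlap, and the insertion groups overlapped each other. The mean log2 change was −0.56 in gypsy1 and −0.55 in gypsy2, and gypsy1 differed from gypsy2 by a log2 of 0.11 (exact two-sided permutation test, p = 0.3; 3 libraries against 3 cannot go below 0.1).

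*dac* itself, measured over the 16 of its 20 bins outside the viewpoint, was higher in both insertions. It took 7.95%, 8.43% and 8.78% in gypsy1, 8.4%, 8.50% and 8.53% in gypsy2, 6.89%, 6.85% and 7.09% in WT and 6.55%, 6.84% and 6.93% in titled-WT. The changes were 0.27 and 0.32 on the log2 scale, and the insertion groups overlapped. *CG5888*, whose introns hold PRE1, differed from its controls by a log2 of −0.53 and −0.44. The stretch between the viewpoints was denser than the stretch beyond the gypsy2 viewpoint by a log2 of 1.54 ± 0.04 (SD, n = 3) in gypsy1 and 1.62 ± 0.05 (SD, n = 3) in gypsy2, which was above WT by 0.79 and above titled-WT by 0.78. Gypsy1 and gypsy2 differed in this ratio by −0.08 (exact permutation test, p = 0.1), and the sign turned to 0.01 with high bins capped. In the mirrored stretches on the other side of PRE2 the ratio differed by −0.13 (exact permutation test, p = 0.1). It was above WT by 0.12 in gypsy1 and above titled-WT by 0.22 in gypsy2 there.

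The Idgf cluster, 3 genes of chitinase-like growth factors between PRE1 and *dac*, set the lines apart from PRE2. It held 2.31%, 2.31% and 2.24% in gypsy1 against 3.0%, 3.10% and 2.99% in gypsy2, beside 3.30%, 3.37% and 3.53% in WT and 3.80%, 3.74% and 3.66% in titled-WT. Both insertions lay below their controls, with log2 changes of −0.57 in gypsy1 and −0.30 in gypsy2. The 3 kb around the D3 fragment held 0.380%, 0.474% and 0.498% in gypsy1 and 0.273%, 0.278% and 0.257% in gypsy2, beside 0.530% to 0.621% in WT and 0.526% to 0.558% in titled-WT. All insertion libraries were below all controls there, with gypsy2 below gypsy1 by a log2 of 0.73 that moved to 0.04 without the single bins that moved at least 8-fold. Of the 14 regions measured from PRE2, gypsy1 and gypsy2 did not overlap in 9, or 64.3%, beside 46.9% of all 6-kb windows, and the adjusted p over the 14 regions was at least 0.16 for these values. Bands of distance overlapped in 10 of 14, and the share of groups not overlapping was 28.6%.

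**Figure D1:**
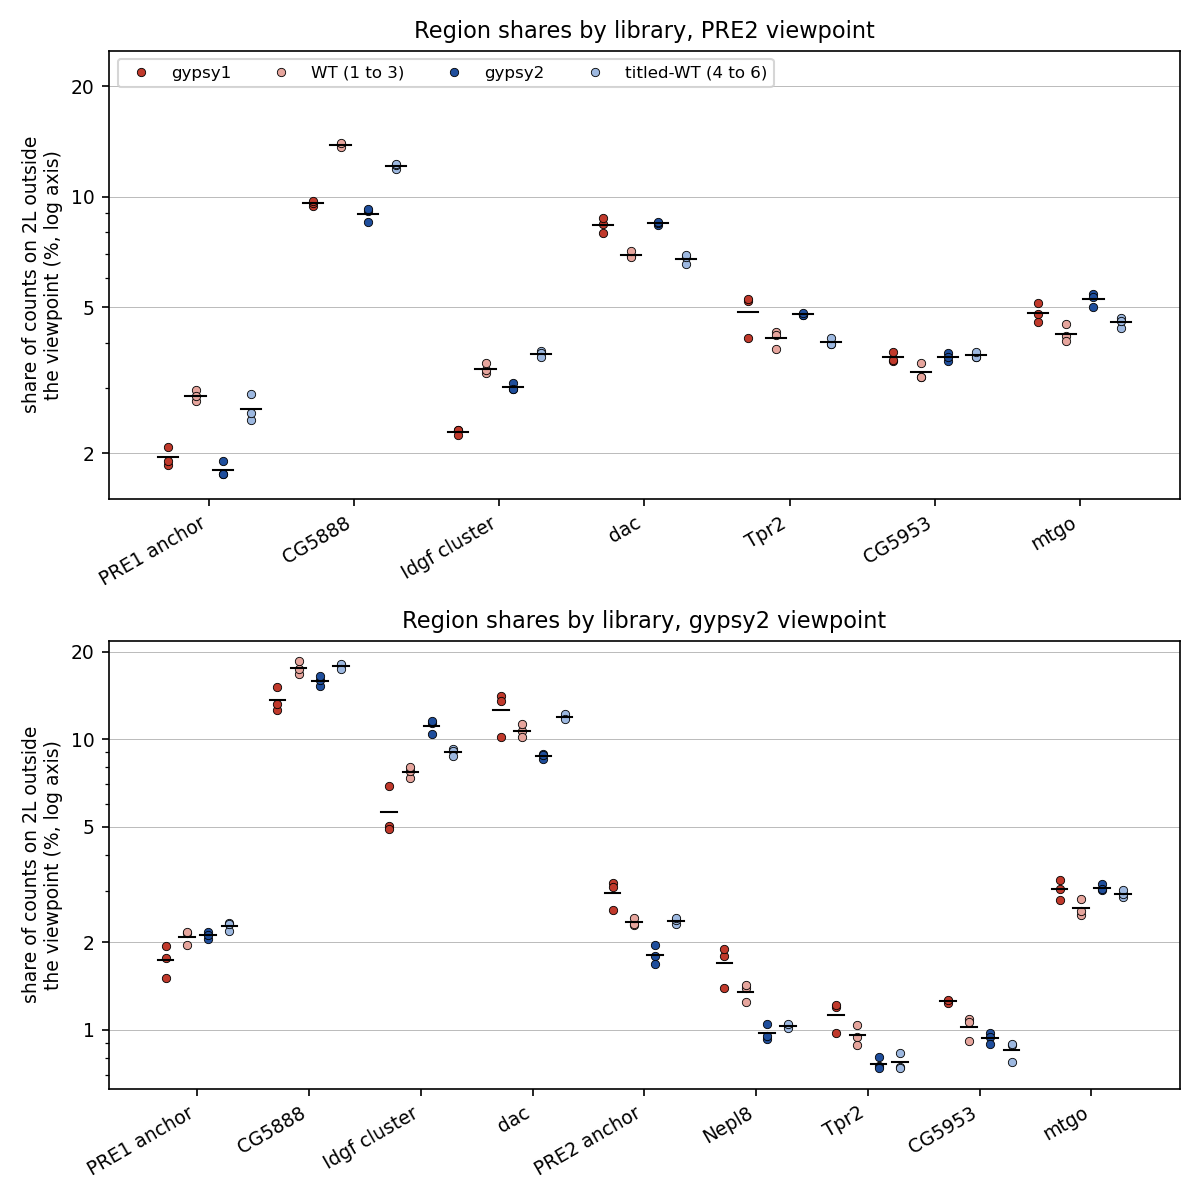
Share of the counts on 2L outside the viewpoint (%, log axis) in each library at named regions, from the PRE2 viewpoint (top) and the gypsy2 viewpoint (bottom). Points are libraries and bars are group means; from PRE2 both insertions lie below their controls at the PRE1 anchor and above them at *dac*, while from the gypsy2 viewpoint gypsy2 lies above titled-WT at the Idgf cluster and below it at *dac*, and gypsy1 lies below WT at the Idgf cluster.

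From the gypsy2 viewpoint the lines lay on opposite sides of their controls next to the viewpoint. On the PRE1 side, the Idgf cluster took 5.03%, 6.90% and 4.90% of the counts in gypsy1 and 10.4%, 11.4% and 11.6% in gypsy2. WT held 7.38%, 7.78% and 8.01% and titled-WT 9.24%, 9.10% and 8.72%. All gypsy1 libraries lay below WT and all gypsy2 libraries above titled-WT, with mean log2 changes of −0.48 and 0.30 and a difference of −1.0 between the lines, which was −0.70 with each library's bins capped at their 99th percentile.

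On the other side *dac* ran the opposite way. It took 14.1%, 10.2% and 13.6% in gypsy1, 8.52%, 8.90% and 8.86% in gypsy2, 10.7%, 10.1% and 11.3% in WT and 11.9%, 12.2% and 11.7% in titled-WT. Gypsy2 lay below titled-WT in every library, with a mean log2 change of −0.45. Gypsy1 lay 0.23 above WT on average, but its replicate 3 was inside the range of WT. With high bins capped, the difference between the lines at *dac* was 0.09 in place of 0.51. The PRE2 anchor, which shares bins with the upstream end of *dac*, followed *dac*. It held 3.21%, 2.58% and 3.11% in gypsy1, 1.96%, 1.79% and 1.69% in gypsy2, 2.30% to 2.42% in WT and 2.31% to 2.42% in titled-WT. Here every gypsy1 library was above WT and every gypsy2 library below titled-WT, with changes of 0.33 and −0.39. The 3 kb around the PRE2 fragment itself did not separate the lines. They held 0.339%, 0.485% and 0.448% in gypsy1 and 0.404%, 0.352% and 0.321% in gypsy2 (exact two-sided permutation test, p = 0.3).

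The D5 fragment in the intron of *dac*, whose 3 kb share bins with *dac* and the PRE2 anchor, showed the same order. The 3 kb around it held 2.30%, 1.64% and 2.08% in gypsy1 and 1.41%, 1.33% and 1.29% in gypsy2, beside 1.54% to 1.76% in WT and 1.70% to 1.77% in titled-WT. The D6 fragment near the upstream end of *dac* differed most of the 20 regions in its change, by a log2 of 0.90, from 0.37 in gypsy1 and −0.53 in gypsy2. PRE1 lies on the side of the Idgf cluster, and its anchor differed less from the controls, by −0.27 in gypsy1 and −0.10 in gypsy2. Groups did not overlap in 15 of the 20 regions (75%, beside 49.7% of all 6-kb windows) and in 7 of 14 bands (50%), and with p = 0.1 as the lowest value an exact permutation test allows, the adjusted p over the regions was at least 0.13.

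*Nepl8*, *Tpr2* and *CG5953*, past PRE2, were higher in gypsy1, and *mtgo*, farther on, overlapped between the lines (log2 −0.02, exact two-sided permutation test, p = 0.9). *Nepl8*, a neprilysin-like gene, held 1.79%, 1.39% and 1.89% in gypsy1 against 1.04%, 0.927% and 0.952% in gypsy2. WT held 1.25% to 1.42% and titled-WT 1.01% to 1.05%, so that the change was 0.31 in gypsy1 and −0.09 in gypsy2. *Tpr2*, a tetratricopeptide repeat gene, and *CG5953* differed by a log2 of 0.55 and 0.42 between the lines. Their difference of changes was smaller, 0.24 and 0.16, with WT above titled-WT by 0.31 and 0.26.

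Windows of 6 kb, up to 500 kb away, located these differences. In edgeR's quasi-likelihood test with Benjamini-Hochberg adjustment, gypsy1 and gypsy2 differed directly in 53 of 162 windows from PRE2 (32.7%; 20 higher and 33 lower in gypsy1) and in 65 of 163 from the gypsy2 viewpoint (39.9%; 34 higher and 31 lower). Without TMM scaling the direct split from PRE2 was 37 higher and 26 lower. WT and titled-WT differed in 48 (29.6%) and 38 windows (23.3%), and 30 of the 53 and 21 of the 65 direct calls were also called between the controls in the same direction. Depth and library set cannot be told apart from the insertion in the direct comparison. Against its own controls, gypsy1 changed in 20 windows from PRE2 (12.3%; 7 higher and 13 lower) and in 7 from the gypsy2 viewpoint (4.29%), and gypsy2 in 40 (24.7%) and 50 (30.7%), or in 36 and 45 with its counts thinned to the depth of gypsy1. The difference of changes was called in 6 windows from PRE2 (3.7%; 4 higher and 2 lower in gypsy1) and in 18 from the gypsy2 viewpoint (11%; 8 higher and 10 lower). With the numbers shared by gypsy1 and WT columns as a block, it was called in 13 (8 higher, 5 lower) and 36 (22 higher, 14 lower), and without TMM scaling in 11 from PRE2. It was called in 8 windows of the gypsy2 viewpoint without gypsy1 replicate 4 and in 30 without gypsy1 replicate 3.

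**Figure D2:**
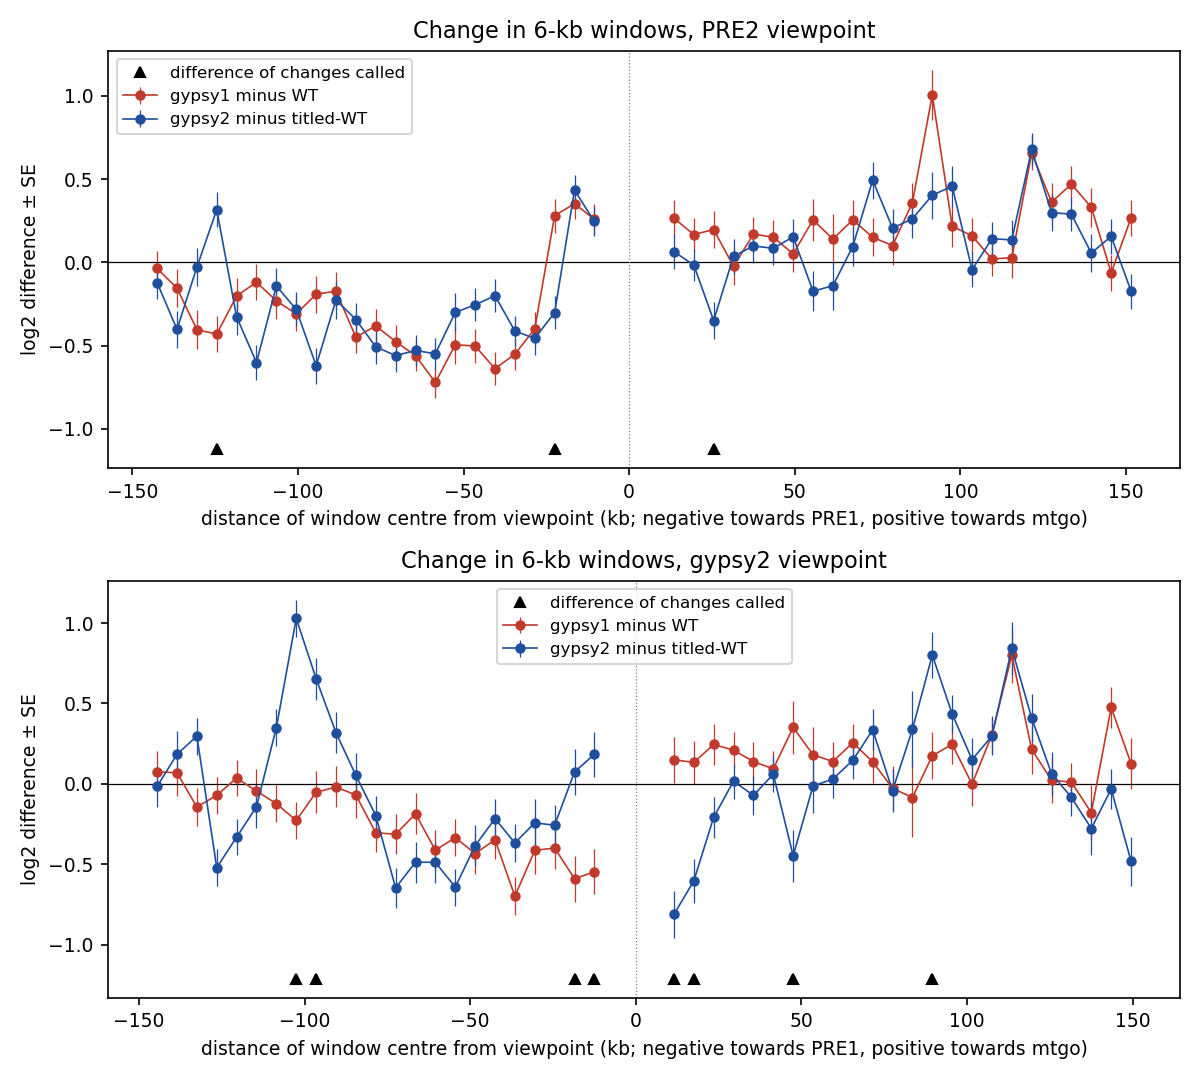
Log2 change (± SE) in 6-kb windows against distance from the viewpoint (kb), gypsy1 minus WT in red and gypsy2 minus titled-WT in blue, with triangles under windows where the difference of changes was called. From PRE2 both lines are below 0 over most of the PRE1 side and differ by a call in 3 of the windows shown; from the gypsy2 viewpoint gypsy1 is below and gypsy2 above 0 just on the PRE1 side, the order turns at *dac*, and gypsy2 alone peaks at *jhamt*.

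Around the gypsy2 viewpoint the calls followed the region shares. The window from 16474001 to 16480000 in *dac* held 5.95%, 4.91% and 6.35% in gypsy1, 3.28%, 3.5% and 3.45% in gypsy2, 4.68%, 5.01% and 5.15% in WT and 5.58%, 5.71% and 5.33% in titled-WT. Gypsy2 lay below all other libraries there, and the change differed by a log2 of 0.96 ± 0.20 (SE; edgeR, adjusted p = 0.0014). The next *dac* window, from 16480001, differed by 0.74 ± 0.19 (edgeR, adjusted p = 0.0096). The window from 16450001 over *Idgf3* and *Idgf2* differed by −0.73 ± 0.20 (edgeR, adjusted p = 0.012), with 3.62%, 4.57% and 3.38% in gypsy1 and 6.80%, 7.71% and 7.70% in gypsy2. These calls rest on the highest bins: capped at each library's 99th percentile, their adjusted p was 0.061, 0.60 and 0.21, and without gypsy1 replicate 4 the *Idgf3* call had an adjusted p of 0.074. The window from 16444001 over *CG5888*, *Idgf2* and *Idgf1* differed by −0.66 ± 0.20 (edgeR, adjusted p = 0.027) and lost its call in 7 of 20 alternatives. From PRE2 a *dac* window, from 16462001 to 16468000, differed by 0.58 ± 0.14 (edgeR, adjusted p = 0.011). It held 1.24%, 1.33% and 1.40% in gypsy1 and 0.872%, 0.972% and 0.958% in gypsy2, with the controls of both sets between 1.04% and 1.20%, so that gypsy1 was above and gypsy2 below every control.

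*jhamt*, which encodes the juvenile hormone acid methyltransferase, lies on the PRE1 side, beyond *CG5888*, and was called from both viewpoints. Seen from gypsy2, the window from 16360001 to 16366000 held 0.923%, 0.990% and 0.901% in gypsy2, against 0.413%, 0.435% and 0.428% in titled-WT. Gypsy1 held 0.322%, 0.414% and 0.361% there and WT 0.343%, 0.436% and 0.437%. Every gypsy2 library was more than any other library, gypsy1 and WT overlapped, and the change differed by a log2 of −1.26 ± 0.17 (edgeR, adjusted p = 1.2e-06). From PRE2 the same window held 0.511%, 0.483% and 0.470% in gypsy2 and 0.218%, 0.240% and 0.248% in gypsy1. WT held 0.281% to 0.350% and titled-WT 0.377% to 0.409%, so that the log2 change was 0.32 in gypsy2 and −0.43 in gypsy1, a difference of −0.75 ± 0.15 (edgeR, adjusted p = 0.0018). Both calls held in every one of the 20 alternatives. The window next to it, from 16366001, differed by −0.71 ± 0.18 from the gypsy2 viewpoint (edgeR, adjusted p = 0.0096) and by 0.13 from PRE2 (edgeR, adjusted p = 0.78).

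*mtgo*, which encodes a fibronectin type III domain protein and lies on the far side of PRE2 from 16545016 to 16663218, was divided. In 4 of its windows gypsy1 was the higher of the changes from the gypsy2 viewpoint, and in 1 the lower. The window from 16636001 held 0.235%, 0.303% and 0.30% in gypsy1, 0.236%, 0.278% and 0.284% in WT, 0.187%, 0.162% and 0.145% in gypsy2 and 0.311%, 0.30% and 0.302% in titled-WT. Gypsy1 overlapped WT and gypsy2 lay below all others, and the difference of changes was 0.997 ± 0.17 (edgeR, adjusted p = 7.6e-05). The windows from 16618001, 16642001 and 16630001 differed by 0.85, 0.74 and 0.66, and the window from 16552001, nearer to the viewpoint, by −0.63 ± 0.20 (edgeR, adjusted p = 0.038). The windows from 16642001 and 16552001 lost their call in 8 of 20 alternatives each and that from 16630001 in 6, while that from 16618001 lost it in 0. In *CG5953* the window from 16510001 was called from both viewpoints, with 0.80 ± 0.23 from the gypsy2 viewpoint (edgeR, adjusted p = 0.021) and 0.55 ± 0.16 from PRE2 (edgeR, adjusted p = 0.032). Transposable elements make up 66.4% of its bases, and it lost its call in 5 and 7 of 20 alternatives.

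The other calls within 500 kb lay in windows with few counts or with changes in gypsy2 alone. From PRE2 a window at *CG31810* differed by 1.05, one at *mdy*, a diacylglycerol acyltransferase gene, by −0.75, and an intergenic one by 1.11. An intergenic window from 16150001 differed by −2.03 ± 0.39 from the gypsy2 viewpoint (edgeR, adjusted p = 0.00043), with 0.0328%, 0.0271% and 0.0338% in gypsy2 and between 0.00720% and 0.0218% in every other library. *PRL-1*, a phosphatase gene, and the noncoding RNA gene *lncRNA:CR31781* differed by −0.79 and −1.30. Gypsy2 changed at both and gypsy1 at neither in its own test against WT (edgeR, adjusted p = 0.90 and 0.97). Of windows called from PRE2 and measured from both viewpoints, 5 of 5 had the same sign from the other viewpoint, and 13 of 17 of those called from the gypsy2 viewpoint did. *jhamt* and *CG5953* were called from both and enter both counts. The viewpoints were counted in the same samples, and the share with the same sign over all 6-kb windows was not measured.

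Along the whole of 2L the lines differed from the gypsy2 viewpoint more than from PRE2. In 50-kb windows the direct comparison called 59 of 468 from PRE2 (12.6%; 36 higher and 23 lower in gypsy1) and 102 of 468 from the gypsy2 viewpoint (21.8%; 43 higher and 59 lower), while the control sets differed in 79 (16.9%) and 85 (18.2%). Without TMM scaling the direct split from the gypsy2 viewpoint was 120 higher and 33 lower, with the median over all windows moved to 0.17. Gypsy1 differed from WT in 7 (1.5%) and 5 windows (1.07%), and gypsy2 from titled-WT in 16 (3.42%) and 120 (25.6%). The difference of changes was called in 1 window from PRE2 (0.214%) and in 27 from the gypsy2 viewpoint (5.77%; 7 higher and 20 lower, or 13 and 14 without TMM scaling). The numbers of calls from the viewpoints were not tested against each other. With gypsy1 and WT blocked by number it was called in 2 and 36, and from the gypsy2 viewpoint in 16 without WT replicate 2 and in 41 without gypsy1 replicate 3. There, 11 of 80 windows within 2 Mb were called (13.8%), 9 of 120 between 2 and 5 Mb (7.5%) and 7 of 268 farther away (2.61%), and 9 of the 11 near ones were lower in gypsy1.

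**Figure D3:**
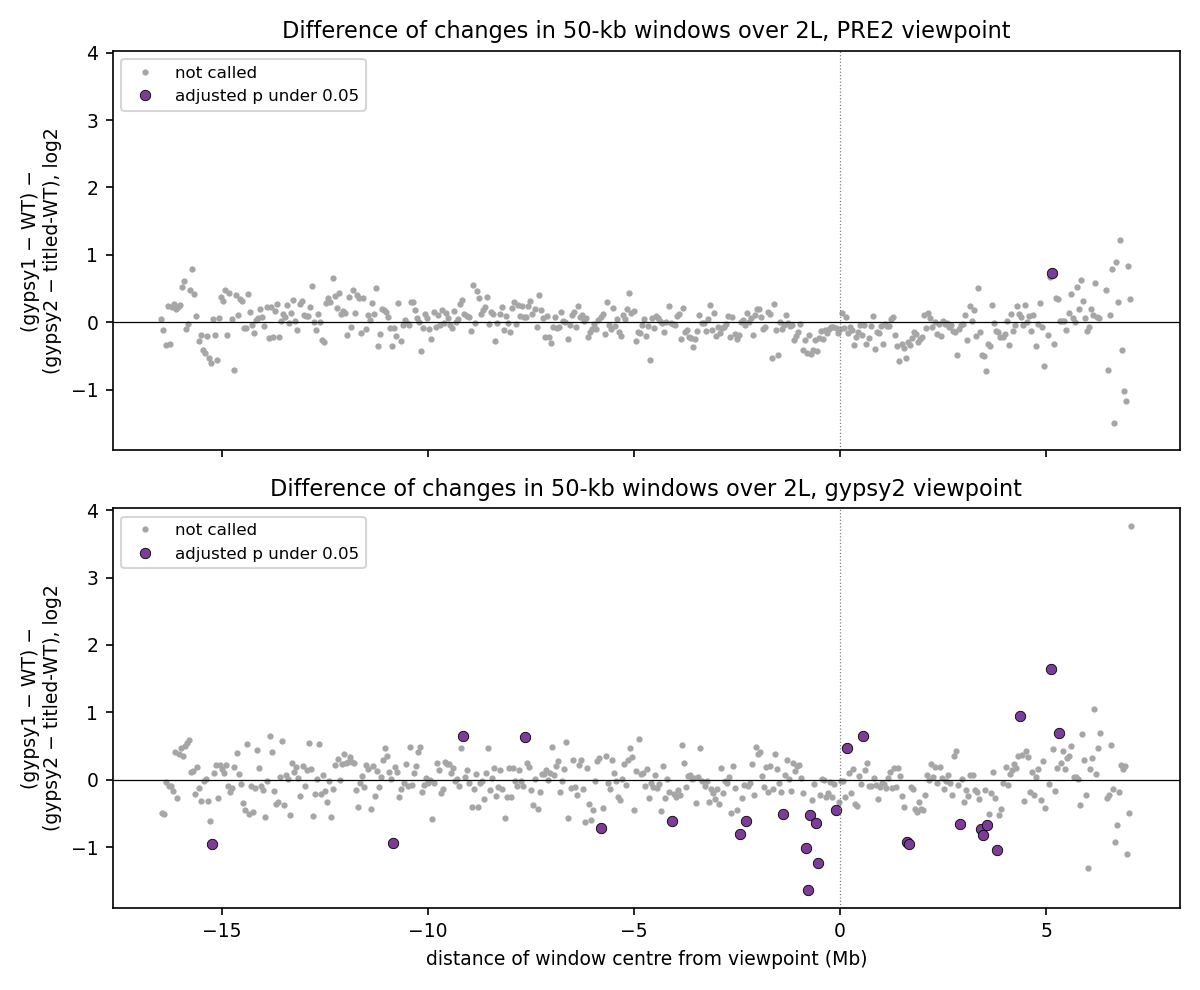
Difference of changes (log2) in 50-kb windows against distance from the viewpoint along 2L (Mb), from PRE2 (top) and the gypsy2 viewpoint (bottom); filled points are windows with an adjusted p under 0.05. PRE2 has 1 called window and the gypsy2 viewpoint 27, 20 of them below 0, where the change in gypsy2 was the higher one.

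A cluster of windows between 0.5 and 0.9 Mb from the gypsy2 viewpoint on the PRE1 side carried 3 of the 5 largest differences in which gypsy2 was the higher line. *beat-Ib*, of the beaten path family of axon guidance proteins, lies in a window that held 0.724%, 0.761% and 0.829% in gypsy2 and 0.326%, 0.347% and 0.368% in titled-WT. Gypsy1, with 0.358%, 0.430% and 0.382%, overlapped WT, with 0.392%, 0.397% and 0.356%. The change differed by a log2 of −1.23 ± 0.14 (edgeR, adjusted p = 6.7e-08). *stol*, a calcium channel subunit gene, was also higher in gypsy2 in 2 windows. In the one from 15600001, gypsy2 held 0.594%, 0.701% and 0.644% against 0.304% to 0.315% in titled-WT. Gypsy1, at 0.387%, 0.360% and 0.427%, lay above WT, at 0.347%, 0.351% and 0.353%, though its change of 0.05 was not called (edgeR, adjusted p = 0.91). The change of the lines differed by −1.02 ± 0.14 (edgeR, adjusted p = 2.2e-06), and in the one from 15650001, where gypsy1 overlapped WT, by −1.63 ± 0.25 (edgeR, adjusted p = 1.3e-05). All 3 kept their call in the 20 alternatives, of which the fit without a filter was the main fit again. Capping and leaving out 10 kb, which bear mainly on bins nearer the viewpoint, left the number of called windows at 27. From PRE2 the *beat-Ib* window held 0.491%, 0.425% and 0.451% in gypsy2 and 0.321% to 0.398% in the other libraries, and the differences of −0.42 at *beat-Ib* and −0.27 and −0.45 at *stol* did not pass the test (edgeR, adjusted p = 0.16, 0.55 and 0.64).

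At windows 4.36 and 5.11 Mb from the gypsy2 viewpoint on the *mtgo* side, gypsy1 replicates 1 and 4 stood apart. The *nompB* window, named for a gene of intraflagellar transport and made of transposable elements to 56.7%, held 0.241%, 0.0613% and 0.264% in gypsy1 and 0.0440% to 0.0621% in the other 9 libraries. Replicate 3 of gypsy1 lay at the level of the controls, and the difference of 1.64 ± 0.34 (edgeR, adjusted p = 0.0017) had an adjusted p of 0.064 in DESeq2. From PRE2 all 3 gypsy1 libraries were higher, at 0.140%, 0.133% and 0.143% against 0.0483% to 0.0936%, though the difference of changes, 0.68, was not called (edgeR, adjusted p = 0.16). From the gypsy2 viewpoint *CG9328* repeated this, with 0.246%, 0.132% and 0.249% in gypsy1, at most 0.134% elsewhere, and a difference of 0.95 ± 0.22 (edgeR, adjusted p = 0.0037). From PRE2 the *CG9328* window held 0.203%, 0.187% and 0.217% in gypsy1 and 0.157% to 0.170% in gypsy2. All controls were lower there, at 0.123% to 0.149%, and the difference of changes was 0.12 (edgeR, adjusted p = 0.86). The single call from PRE2, at the adenylate cyclase gene *Ac3* from 21600001, was 0.73 ± 0.16 (edgeR, adjusted p = 0.015), and it was lost without WT replicate 1 or 2, titled-WT replicate 4 or gypsy2 replicate 5.

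**Figure D4:**
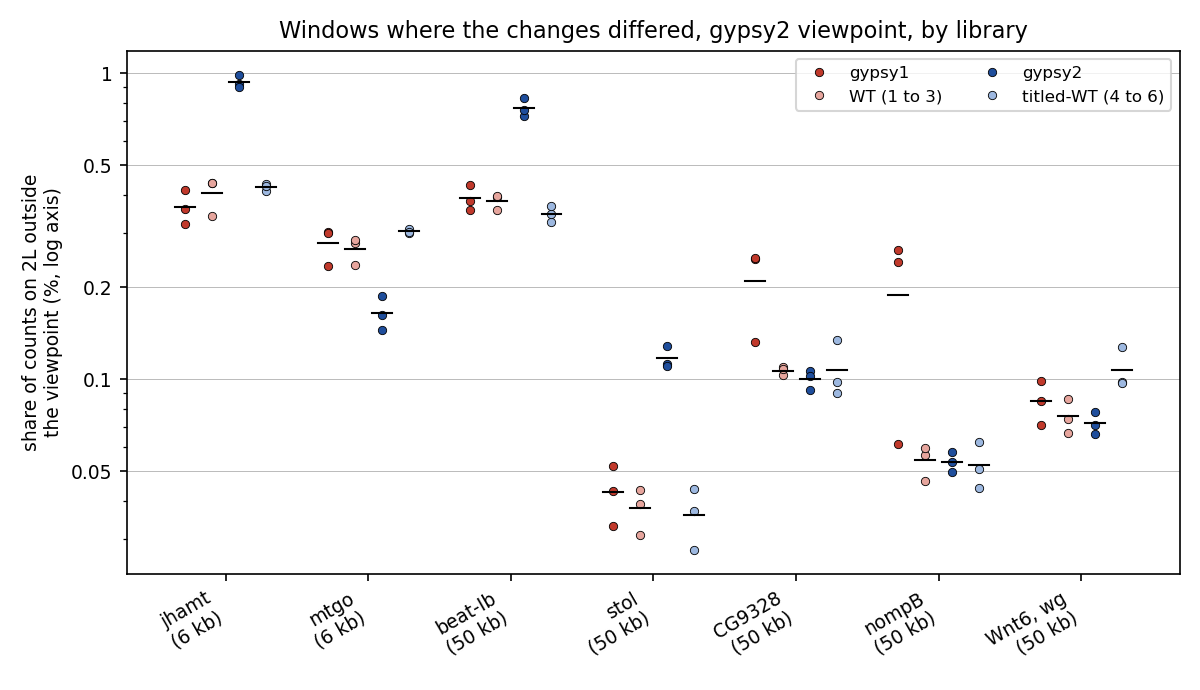
Share of the counts on 2L outside the gypsy2 viewpoint (%, log axis) in each library at 7 windows of 6 or 50 kb where the difference of changes was called. Points are libraries and bars are group means; gypsy2 stands alone at *jhamt*, *mtgo*, *beat-Ib* and *stol*, and gypsy1 replicates 1 and 4, but not 3, stand apart at *CG9328* and *nompB*.

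Loci of 28 developmental genes known as Polycomb targets, in 26 windows, were called no more often than all windows in the comparison of the insertions. With the gypsy2 viewpoint the direct comparison called 3 of the 26 (11.5%, all higher in gypsy1, beside 21.8% of all windows) and the difference of changes 1 (3.85%, beside 5.77%), with medians of −0.09 and 0.30 against −0.02 and −0.02 over all windows. The 1 call was the window of the Wnt ligand genes *wg* and *Wnt6*, with a difference of 0.64 ± 0.20 (edgeR, adjusted p = 0.044) that was lost in 8 of 20 alternatives. Gypsy2 against titled-WT was lower in 14 of the 26 (beside 11.1% of all windows), but WT against titled-WT was lower in 13 (beside 8.76%) and gypsy1 against WT in 0 (beside 0.427%). From the gypsy2 viewpoint the summed share of the 26 windows was 4.17%, 4.17% and 4.19% in titled-WT and 3.12% to 3.91% in the other 9 libraries, so that titled-WT stood above them all. From PRE2 it was 3.71%, 3.88% and 3.79% in titled-WT, inside the 3.62% to 4.16% of the other libraries. At *elB* and *noc*, neighbouring zinc finger genes, the control sets differed from PRE2 in the other direction. WT was above titled-WT by a log2 of 0.76 and 0.56 (edgeR, adjusted p = 1.4e-05 and 0.00073). The *elB* window held 0.211%, 0.216% and 0.178% in gypsy1 and 0.117%, 0.116% and 0.102% in gypsy2, a direct log2 difference of 0.86 ± 0.12 (edgeR, adjusted p = 1.9e-07). WT held 0.204%, 0.192% and 0.145% and titled-WT 0.0984%, 0.129% and 0.109%, and the difference of changes was 0.10 (edgeR, adjusted p = 0.90). From the gypsy2 viewpoint the control sets at *elB* differed by 0.25 (edgeR, adjusted p = 0.17). Gypsy2 there differed from titled-WT by −0.43 (edgeR, adjusted p = 0.0078), and the difference of changes was 0.49 (edgeR, adjusted p = 0.096).

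Single 1-kb bins within 100 kb of a viewpoint that moved at least 8-fold between an insertion and its control set, a rule chosen after values were seen, told the lines apart and also joined them. The bin from 16443001 in *CG5888* held 446, 712 and 330 counts in WT and 2618, 4884 and 6969 in titled-WT from the gypsy2 viewpoint, and 1, 7 and 10 in gypsy1 and 8, 10 and 11 in gypsy2. From PRE2 it held 0 to 2 counts in the 6 insertion libraries. The bins from 16426001, beside the PRE1 anchor, and from 16390001 were low in both insertions from both viewpoints. At 16390001 from PRE2, gypsy2 replicate 4 held 193 counts against 265, 603 and 1243 in titled-WT. The bin from 16432001 was nearly empty in gypsy1 alone, with 0, 4 and 5 counts from PRE2 against 218, 360 and 234 in WT, while gypsy2 held 4263, 3186 and 3014 and titled-WT 789, 832 and 1700. The bin that holds the D3 fragment, from 16458001, was low in gypsy2 alone: from the gypsy2 viewpoint it held 345, 412 and 215 counts there against 24445, 39949 and 55770 in titled-WT, and 1613, 3489 and 2306 in gypsy1 against 3049, 3865 and 2233 in WT. The bin from 16542001 at *CG31816* ran the other way, with 3214, 1902 and 2050 counts in gypsy2 and 37, 77 and 89 in titled-WT. From PRE2 the bin from 16575001 in *mtgo* held 240, 451 and 439 counts in gypsy1 and 0, 1 and 1 in WT. Without them the difference of gypsy1 and gypsy2 over the 3 kb around D3 moved from 0.73 to 0.04 from PRE2 and from −1.15 to −1.60 from the gypsy2 viewpoint.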

How the data were processed

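4C-seq libraries of *Drosophila* embryos were used, 3 of gypsy1, 3 of gypsy2 and 6 controls, each counted from 2 viewpoints. The authors deposited raw counts of reads per 1-kb bin of dm6, not normalized; the submitters' processing notes name Bowtie, with no version, and primers and restriction enzymes are not stated. Totals ran from 800269 to 25904672 counts per library, and 0 columns of values were left unmapped. The highest 16 bin values, all in or next to a viewpoint bin, end in 0 in the files, so that depths are rounded there. Reads were not tagged with molecular identifiers as far as the sources say, so that counts are not independent molecules.

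The bins within 5 kb of the viewpoint bin were left out, bins were summed into 6-kb windows out to 500 kb and 50-kb windows over 2L, and windows with a mean count of at least 10 were fitted in edgeR 4.0.16 (R 4.3.3) in 1 quasi-likelihood model of the 4 groups, with TMM factors and Benjamini-Hochberg adjustment over all windows of a viewpoint and size, at 0.05. A standard error is the log2 difference over the square root of F. Region shares were compared by exact two-sided permutation tests in Python 3.11.15 (numpy 2.4.6, pandas 2.3.3), adjusted over the regions or bands of a viewpoint. The window tests were also run on simulated counts, which were drawn with no pairing of libraries and no difference between the control sets. The windows named are the 10 of 6 kb and the 5 of 50 kb with the largest difference in each direction among those called, besides the genes, anchors, amplicons, bands and Polycomb list given for every comparison; from direct calls only examples are given. The members and lists were chosen with earlier results of these data known. Alternatives were DESeq2 1.42.0, no TMM, no filter, thinning gypsy2 and titled-WT to the depth of gypsy1, capping bins at the 99th percentile, leaving out 10 kb around the viewpoint, other window sizes and denominators, each library left out, a replicate block, and, chosen after seeing the data, control libraries left out, a block of gypsy1 with WT alone, a block of the column numbers that gypsy1 and gypsy2 share and leaving out bins that moved at least 8-fold. A window named for a difference of changes was followed through the 20 alternatives that refit windows of its own size. Other sizes, other denominators and leaving out 8-fold bins are not among them. From the gypsy2 viewpoint the filter removed no window, so that the fit without it repeats the main fit. The columns of gypsy1 and WT share numbers, and the deviations of same-numbered libraries correlated by 0.36, 0.42 and 0.28 from PRE2 and by 0.53, 0.57 and 0.12 from the gypsy2 viewpoint. They were taken as pairs only in the alternatives with a replicate block. The main fits, and the calls and standard errors from them, did not use this pairing. Libraries of gypsy2 and titled-WT did not pair (−0.54 to 0.17). Amplicons were placed by matching the study's primers to the dm6 sequence, and gene models are those of the reference annotation.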

Additional observations from a re-analysis of the deposited data

Results flagged for a closer look

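In 35 windows the change in gypsy1 against WT and the change in gypsy2 against titled-WT differed by a test of the difference itself (edgeR's quasi-likelihood test, adjusted over all windows of a viewpoint and size). Values are log2 differences of the changes and are positive where gypsy1 was the higher.

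From PRE2, the 6-kb windows were 1.11 at an intergenic window, 1.05 at *CG31810*, 0.583 at *dac*, 0.547 at *CG5953*, −0.748 at *jhamt* and −0.747 at *mdy*, and the 50-kb window at *Ac3* was 0.73.

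Of the 6-kb windows of the gypsy2 viewpoint, 8 were higher in gypsy1. They were 0.997, 0.853, 0.744 and 0.661 in *mtgo*, 0.962 and 0.736 in *dac*, 0.935 at *beat-Ic*, a member of the beaten path family, and 0.797 at *CG5953*. The other 10 were lower in gypsy1, at −1.26 and −0.706 in *jhamt*, −0.73 over *Idgf3*, −0.663 over *CG5888* and the Idgf genes, −0.626 in *mtgo*, −0.794 at *PRL-1*, −0.959 at the cytochrome c gene *Cyt-c-d*, −1.3 at *lncRNA:CR31781*, −1.32 at *lncRNA:CR43053* and −2.03 at an intergenic window.

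Of 50-kb windows from the gypsy2 viewpoint, 1.64 at *nompB*, 0.951 at *CG9328*, 0.69 at *CG31612*, 0.644 at *CG6304* and 0.642 at *Wnt6* and *wg* were higher in gypsy1, and −1.63 and −1.02 at *stol*, −1.23 at *beat-Ib*, −1.05 at *CG17571* and −0.957 at *CG42329* were lower. At *CG17571* gypsy2 held 0.194%, 0.188% and 0.205% of the counts and gypsy1 0.111%, 0.0860% and 0.122%, both above the 0.0614% to 0.0725% of the 6 controls.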

How the results depend on the processing

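Of the 35 windows named for a difference of changes, 17 kept their call under every alternative and none turned its sign; the cause of the others was not tested except where fewer libraries or windows were fitted. In the order PRE2 6 kb, PRE2 50 kb, gypsy2 6 kb and gypsy2 50 kb, leaving out 1 library gave 5 to 9, 0 to 7, 8 to 30 and 16 to 41 calls of the difference of changes, 42 to 54, 36 to 61, 52 to 73 and 59 to 101 direct calls, and 31 to 47, 33 to 88, 14 to 36 and 25 to 88 calls between the control sets. The single PRE2 50-kb call became 0 without WT replicate 1 or 2, titled-WT replicate 4 or gypsy2 replicate 5, 7 without WT replicate 3, and 2 without gypsy1 replicate 3 or 4 or gypsy2 replicate 4. The direct count from PRE2 was 36 without gypsy1 replicate 3, and from the gypsy2 viewpoint 59 without gypsy1 replicate 1 in 50-kb windows. The control count was 31 without WT replicate 2 (PRE2, 6 kb), 34 and 33 without WT replicates 1 and 2 (PRE2, 50 kb), 14, 25 and 23 without WT replicate 1 and titled-WT replicates 5 and 6 (gypsy2, 6 kb), and 25 and 47 without WT replicates 1 and 2 (gypsy2, 50 kb).

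With a replicate block over all pairs, the difference of changes was called in 12, 6, 35 and 38 windows, and with gypsy1 and WT alone paired in 13, 2, 36 and 36, so that pairing raised each count. Gypsy1 and gypsy2 share 2 column numbers, whose libraries did not deviate together (correlations of −0.056 and −0.20 with the PRE2 viewpoint, −0.19 and −0.021 with gypsy2), and a replicate block of these, added after seeing the data, gave 53, 58, 67 and 105 direct calls in place of 53, 59, 65 and 102. DESeq2 called 10 and 4 differences of changes from PRE2, no TMM 11 in its 6-kb windows, and thinning 2 in its 50-kb windows. Smaller and larger windows gave 114 (3 kb) and 31 (12 kb) direct calls and 26 and 1 differences of changes in place of 6-kb windows from PRE2, 106 direct calls (3 kb) and 25 control calls (12 kb) from the gypsy2 viewpoint, 112 (20 kb) and 37 (100 kb) direct calls, 0 differences of changes (100 kb) and 45 control calls (100 kb) in place of 50-kb windows from PRE2, and 179 direct calls (20 kb) and 49 control calls (100 kb) from the gypsy2 viewpoint. Without TMM the control sets split 27 higher to 23 lower and 36 to 29 from PRE2 and 30 to 11 and 64 to 28 from the gypsy2 viewpoint, in place of 18 to 30, 60 to 19, 16 to 22 and 44 to 41, and the median direct difference moved to 0.11 in 6-kb windows from PRE2.

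The ratio of densities was 0.0074 with capped bins and −0.11 to −0.055 with a library left out. Groups were apart in 5 regions from PRE2 with counts beyond 200 kb as the denominator and in 7 bands with 10 kb left out. Some small share differences turned their sign. From PRE2, *dac* became 0.054 with capped bins, 0.21 with 10 kb left out and −0.050 to 0.021 with a library left out, and the PRE1 side at 5 to 20 kb 0.054, 0.21 and −0.051 to 0.020. *CG5953* became 0.010 with the denominator within 500 kb and 0.0017 without 8-fold bins. Leaving out a library gave −0.028 to 0.013 for *CG5953*, −0.048 to 0.13 for *Tpr2* and for the *mtgo* side at 5 to 20 kb, −0.047 to 0.012 for the PRE1 side over 2 Mb, −0.076 to 0.010 for the *mtgo* side at 200 to 500 kb and −0.0058 to 0.054 over 2 Mb. With the gypsy2 viewpoint, the denominator within 500 kb gave 0.058 for *mtgo*, 0.017 for the PRE1 side at 50 to 100 kb and 0.058 at 100 to 200 kb, and that beyond 200 kb gave −0.027 for the right flank of PRE1 and −0.083, −0.067 and −0.088 for the *mtgo* side at 50 to 100 kb, 100 to 200 kb and 500 kb to 2 Mb. Leaving out a library gave −0.079 to 0.039 for *mtgo*, −0.064 to 0.022 for the PRE1 side at 100 to 200 kb, −0.052 to 0.10 for the *mtgo* side at 50 to 100 kb and −0.050 to 0.060 at 500 kb to 2 Mb.

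With gypsy2 and titled-WT thinned to the depth of gypsy1, 50-kb windows of the gypsy2 viewpoint in which gypsy2 changed numbered 111 in place of 120. With 3 libraries against 3, the design keeps any single region from passing 0.05 in an exact permutation test.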

Other observations

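The remaining 17 calls of 50-kb windows from the gypsy2 viewpoint, outside the 10 largest, were mostly lower in gypsy1. *SoxN*, a Sox transcription factor gene, and a window of *mtgo* were higher, by 0.64 and 0.47 on the log2 scale, and 15 were lower. Neighbouring windows at *rdo* and *Socs36E*, a suppressor of cytokine signalling, differed by −0.93 and −0.95 (edgeR, adjusted p = 0.00018 and 7.2e-05), and 2 neighbouring windows at *sick*, an actin regulator, by −0.73 and −0.82 (edgeR, adjusted p = 0.0078 and 0.0018). *CycE*, the cyclin E gene next to *stol*, differed by −0.52 (edgeR, adjusted p = 0.016). From PRE2 none of these 5 windows was called (edgeR, lowest adjusted p = 0.16), and all had the same sign there. Over the 27 called windows, 25 had the same sign from PRE2, whose counts come from the same samples, and 0 were called there. The share with the same sign over all 50-kb windows was not measured, so that the 25 cannot be set against it.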
